A study of Mus musculus with 24 samples.

Results

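The folate one-carbon enzymes described here are 7 mouse genes, Mthfd1, Mthfd1l, Mthfd2, Shmt1, Shmt2, Mthfs and Mtr. They were read by the probes whose gene name in the scanner files is one of these symbols, which gave 10 probes of the 55681 on the array. Mthfd1l, Mtr and Shmt1 had 2 probes each and the other genes had 1. All 7 genes were tested in both tissues, among 21847 genes and named transcribed regions in liver and 23384 in white adipose tissue. The genes were chosen by the measured level of Mthfd1l: the set was put together around it because of its difference between the genotypes at ZT13 in earlier results of these arrays. Genotype differences at ZT13, and the genotype by time interaction that contains them, are therefore given as a description without a test. The same holds for the changes of Mthfd1l between the times, which use the same ZT13 arrays.

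Folate carries single carbon units in the cytosol and in mitochondria. Serine hydroxymethyltransferases (Shmt1 in the cytosol, Shmt2 mainly in mitochondria) load a carbon from serine onto tetrahydrofolate. The trifunctional enzyme Mthfd1 interconverts the one-carbon forms in the cytosol, while Mthfd2 and the formate-releasing synthetase Mthfd1l act in sequence inside mitochondria. Mthfs returns 5-formyltetrahydrofolate to the active pool, and methionine synthase (Mtr) passes the methyl group to homocysteine. In liver this pathway feeds purine synthesis, methylation and serine and glycine turnover.

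Mice carried human PER1 with the S714G variant (hPER1S714G, called mutant) or human PER1 with S714 (hPER1S714, called control). PER1 is a repressor of the circadian clock. Only males of 2 months on the C57BL/6 background were used, each held for 10 days in light-dark cycles. The tissues, liver and white adipose, were collected at ZT1 or ZT13 (zeitgeber time, with lights on at the start), which gave 8 groups of 3 arrays: liver of mutants at ZT1 and ZT13, liver of controls at ZT1 and ZT13, and the same 4 groups for white adipose tissue. Every group thus carries a human PER1 gene, and the promoter that drives it, the number of founder lines and the state of the mouse Per1 gene are not given in the sources used here. The design text calls the 3 samples of a group independent repeats without naming separate animals, so the p-values below measure only the spread between these samples.

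The 24 arrays lay on 3 slides of 8. Slide 1 held all 3 liver and all 3 adipose arrays of controls at ZT1 and 2 of the 3 adipose arrays of mutants at ZT1. Liver of mutants at ZT1 lay wholly on slide 2 and liver of mutants at ZT13 wholly on slide 3, so slide goes with genotype or time in several comparisons. Only mutant adipose tissue at ZT1 lay on both slide 1 and slide 2, with 2 arrays and 1 array. A fit with slide as a fixed block takes its step between these slides from those 3 arrays, for liver too. In liver comparisons that set slide 1 against another slide, it cannot tell slide from genotype or time. The share of spots well above background was 45.5% to 71.2% per array. All 8 hepatocyte markers were well above background in every liver group, where their summed level lay between 10.1 and 10.9 on the log2 scale. All 8 adipocyte markers were well above background in every adipose group, with summed levels of 9.02 to 9.58, against 3.31 to 4.15 in liver. Levels throughout are log2 intensities relative to the 75th percentile of the same array. They can be compared between arrays for one probe, but not between probes.

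Mthfd1l encodes the mitochondrial synthetase that releases formate. Its main probe lies at chr10:6198416-6198475 on the minus strand of build mm9. Its first 31 bases align without a gap to the last 31 bases of the Mthfd1 probe at chr12:77418622-77418681 (mm9, plus strand). Both stretches are shown because the genes are relatives with different patterns on these arrays, and capitals mark the 24 aligned bases that match:
Mthfd1l: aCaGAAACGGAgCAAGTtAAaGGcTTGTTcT
Mthfd1: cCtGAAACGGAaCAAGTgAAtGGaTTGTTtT
The other 29 bases of each 60-base probe lie outside this alignment, and whether either probe also captures the other transcript was not tested. The annotation used here does not say which exon or untranslated region lies under a probe.

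Mthfd1l was lower in mutants than in controls at ZT13 in both tissues. In liver at ZT13 its level was -2.90, -2.66 and -2.36 in mutants, against 0.10, 0.37 and 0.27 in controls. In adipose tissue at ZT13 it was -1.92, -2.23 and -2.11 in mutants, against -0.32, -0.08 and -0.27 in controls. Every mutant array lay below every control array in each tissue, by a wide gap. The difference was -2.89 ± 0.29 (SE, log2, n = 3 each) in liver, a level 7.40-fold lower, and -1.87 ± 0.20 in adipose tissue, 3.65-fold lower. These are the values by which the set was chosen. Within slide 3, which held all 3 mutant and 2 of the 3 control liver arrays, the liver difference was -2.96. No slide held both genotypes of adipose tissue at ZT13, so slide and genotype cannot be told apart there.

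**Figure D1:**
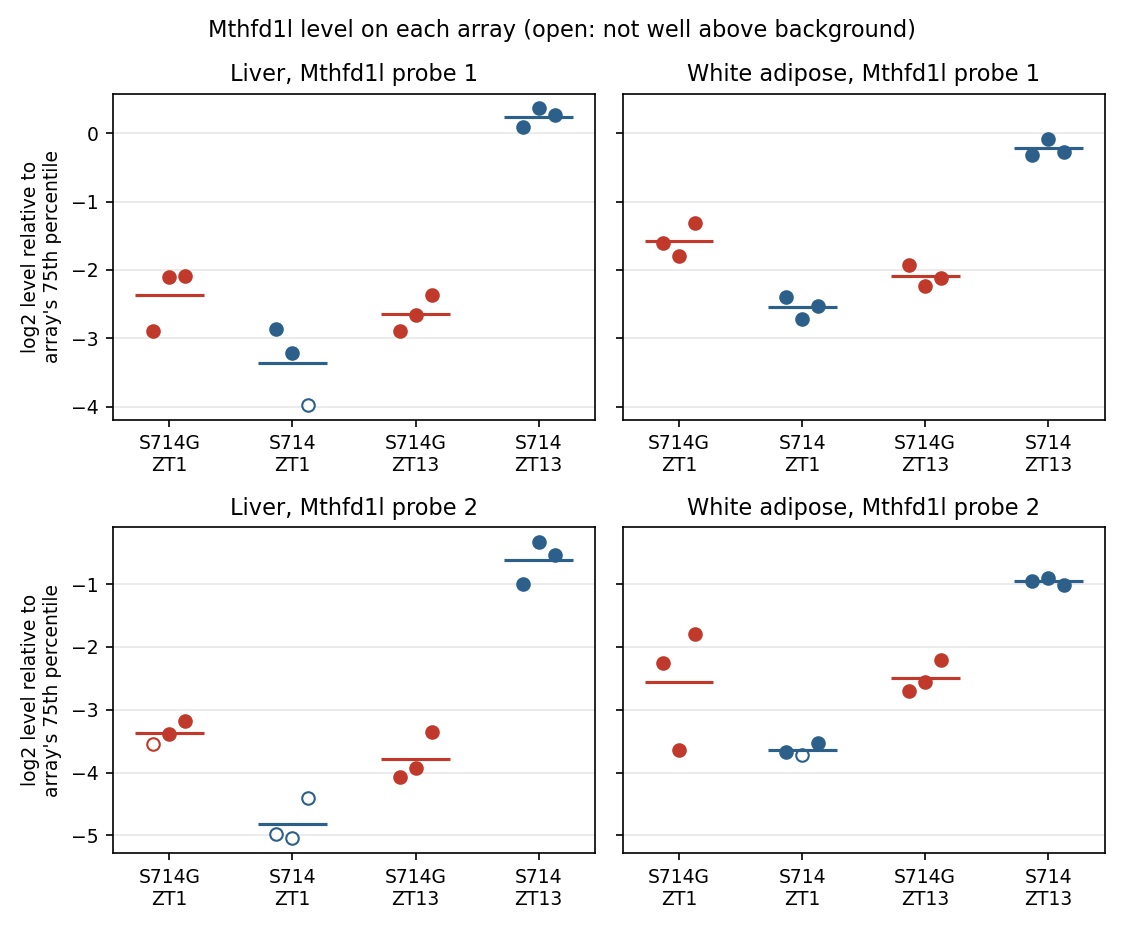
Level of Mthfd1l on each of the 24 arrays (log2 relative to the array's 75th percentile), for the main probe in the upper row and the second probe in the lower row. Lines are group means, n = 3, and open symbols are spots not well above background. The control groups at ZT13 stand above all other groups with both probes, at means of 0.25 in liver and -0.22 in adipose tissue for the main probe.

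At ZT1 Mthfd1l was, on average, higher in mutants than in controls. In liver the main probe read -2.89, -2.10 and -2.09 in mutants, against -2.87, -3.22 and -3.98 in controls, and 1 control array was not well above background. The mutant array at -2.89 fell just inside the control range, so the groups overlapped. In adipose tissue the values were -1.61, -1.80 and -1.31 in mutants, against -2.40, -2.72 and -2.52 in controls, with no overlap. The liver difference was 0.99 ± 0.29 and passed the threshold of 0.05 (adjusted p = 0.0173, limma over all genes). With slide as a fixed block it was 0.59 (adjusted p = 0.765), with slide as a random block 0.85 (adjusted p = 0.313) and with normexp background correction 0.30 (adjusted p = 0.189). It lost the call without control replicate 3, at 0.68, or without mutant replicate 2 or 3, at 0.86 each (adjusted p = 0.0609, 0.0667 and 0.0645). Mutant and control livers at ZT1 lay on different slides, so the fixed block took its slide step from the mutant adipose arrays at ZT1. The adipose difference was 0.97 ± 0.20 and did not pass (adjusted p = 0.294). Within slide 1, on 2 mutant and 3 control arrays, it was 0.84. The liver and adipose differences at ZT1 differed by 0.02 ± 0.36 (adjusted p = 0.975).

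Between the times, Mthfd1l was higher at ZT13 than at ZT1 in controls of both tissues, with no overlap, and was slightly lower on average in mutants. In control liver the ZT13 level exceeded the ZT1 level by 3.60 ± 0.29, where 1 of the 3 ZT1 arrays was not well above background, and by 2.48 with normexp background correction. In control adipose tissue the difference was 2.33 ± 0.20, or 5.02-fold. In mutants the difference was -0.28 ± 0.29 in liver and -0.51 ± 0.20 in adipose tissue. With slide as a fixed block the control difference was 3.05 in liver and 1.93 in adipose tissue. It was larger in control liver than in control adipose tissue by 1.27 ± 0.36. The summed proliferating-cell markers in liver were 0.77 to 1.24 in mutants at ZT13, against 0.78 to 0.98 in mutants at ZT1. They were 1.24 to 2.32 in controls at ZT13, against 0.09 to 0.36 in controls at ZT1, and so were higher at ZT13 in controls without overlap, as Mthfd1l was. In adipose tissue the sums overlapped between the times, at 0.62 to 1.19 in controls at ZT13, against 0.48 to 1.06 in controls at ZT1. Of the 5 markers, 3 or 4 were well above background on all 3 arrays of each liver group, and Top2a was on no array of mutant liver at ZT1 or control liver at ZT13. The part of proliferating cells in the Mthfd1l values was not tested.

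Ordered by mean level of the main probe, control liver at ZT13 stood first, at 0.25 ± 0.14 (SD, n = 3), and control adipose tissue at ZT13 was second, at -0.22 ± 0.13. Mutant adipose tissue followed at ZT1, at -1.57 ± 0.25, and then at ZT13, at -2.09 ± 0.15. Among these 4 groups no neighbours overlapped. From mutant adipose tissue at ZT13 downward each group overlapped the next: mutant liver at ZT1 (-2.36 ± 0.46), control adipose tissue at ZT1 (-2.55 ± 0.16), mutant liver at ZT13 (-2.64 ± 0.27) and control liver at ZT1 (-3.36 ± 0.56).

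The second Mthfd1l probe lies at chr10:6190563-6190622 (mm9, minus strand). In liver at ZT13 it read -4.06, -3.92 and -3.36 in mutants, against -1.0, -0.32 and -0.53 in controls. In adipose tissue at ZT13 it read -2.71, -2.55 and -2.21 in mutants, against -0.95, -0.90 and -1.02 in controls. It thus kept mutants below controls at ZT13 in both tissues without overlap, by -3.16 ± 0.25 in liver and -1.54 ± 0.38 in adipose tissue. In control adipose tissue it was higher at ZT13 than at ZT1 by 2.69 ± 0.38. At ZT1 none of the 3 control liver arrays had it well above background, so no fold is given against that group. In adipose tissue at ZT1 1 mutant array, at -3.64, lay within the control range of -3.73 to -3.53.

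The timing of Mthfd1l can be set beside the clock genes of the same arrays. Arntl, a clock activator, differed between mutant and control liver by 3.91 at ZT13 and by -2.73 at ZT1 on the log2 scale. Dbp, a clock output factor, differed by -3.59 at ZT13 and 3.20 at ZT1. Between the times Dbp changed by -3.46 in mutant liver and by 3.34 in control liver (adjusted p = 4.61e-06 and 7.55e-07). Mthfd1l and Dbp were both higher at ZT13 than at ZT1 in control liver, whereas in mutant liver Dbp fell and Mthfd1l differed by -0.28.

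Among 20911 genes measured in both tissues, the genes whose 8 group means were closest to those of Mthfd1l, each taken relative to its tissue's mean, were D7Wsu130e, A930033H14Rik, Nrg4, Wee1 and a probe without a gene name. The root mean square distance was 0.22 log2 units for D7Wsu130e and 0.47 to 0.50 for the other 4. Nrg4 encodes a growth factor of the neuregulin family, and Wee1 a kinase that holds back entry into mitosis. These distances include the ZT13 values by which Mthfd1l was chosen and are a description, as are the genes' own values, since their likeness chose them. Their levels at ZT13 exceeded those at ZT1 by 2.55 to 3.48 in control liver and differed by -0.85 to -0.29 in mutant liver. In control adipose tissue the difference was 2.36 for D7Wsu130e and 2.42 for Wee1. It was 0.59 for Nrg4, represented there by another of its probes, and 0.62 for A930033H14Rik. By the same measure Dbp ranked 1958th, at a distance of 0.97, and Arntl 20910th. Of the other 6 members Mthfd1 stood closest, at rank 2416, and Mthfd2 farthest, at rank 17682.

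**Figure D2:**
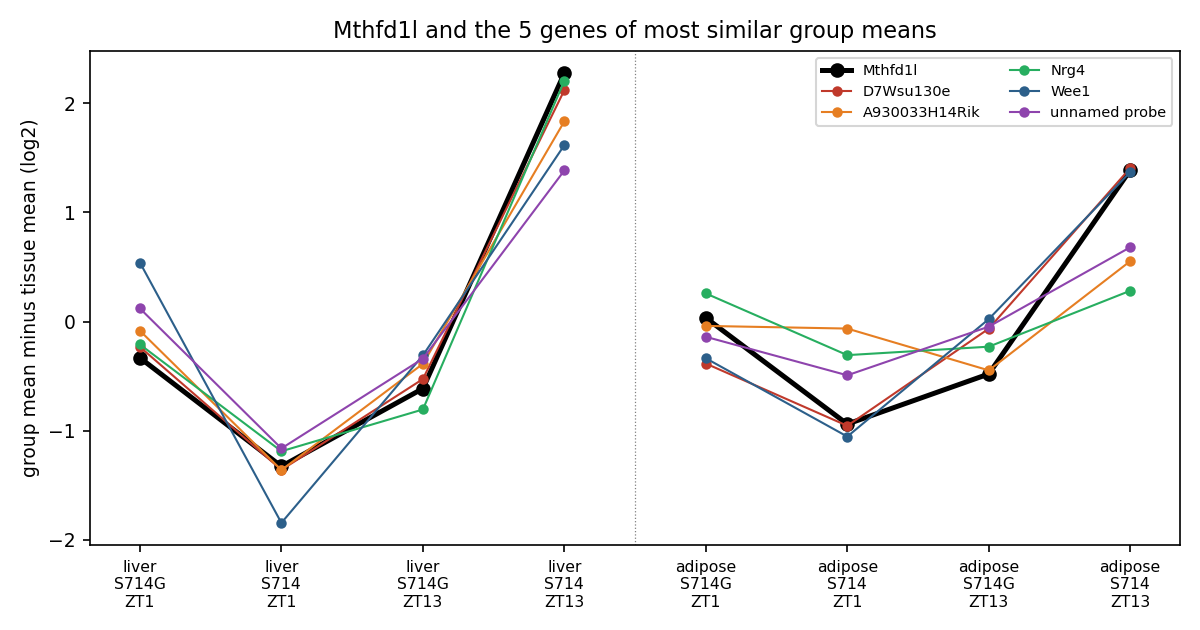
Group means of Mthfd1l and of the 5 genes closest to it, each relative to the gene's mean over the 4 groups of a tissue (log2), with the liver groups left of the dotted line and the adipose groups right of it. All 6 peak in control liver at ZT13, where Mthfd1l lies 2.27 above its liver mean. In adipose tissue D7Wsu130e and Wee1 follow it most closely at the control ZT13 peak of 1.39.

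The Mthfd1l promoter is shown because its change between the times in controls was the largest of the 7 genes. The 250 bases before the RefSeq start site lie at chr10:3972825-3973074 of GRCm38, plus strand. The Mthfd1 promoter, at chr12:76254982-76255231 (GRCm38, plus strand), is set beside it, with its only motif match in capitals:
Mthfd1l promoter: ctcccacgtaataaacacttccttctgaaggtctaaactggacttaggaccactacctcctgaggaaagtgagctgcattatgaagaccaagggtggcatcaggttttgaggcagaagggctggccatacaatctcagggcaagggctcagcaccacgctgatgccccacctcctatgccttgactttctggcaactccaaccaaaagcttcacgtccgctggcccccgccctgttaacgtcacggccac
Mthfd1 promoter: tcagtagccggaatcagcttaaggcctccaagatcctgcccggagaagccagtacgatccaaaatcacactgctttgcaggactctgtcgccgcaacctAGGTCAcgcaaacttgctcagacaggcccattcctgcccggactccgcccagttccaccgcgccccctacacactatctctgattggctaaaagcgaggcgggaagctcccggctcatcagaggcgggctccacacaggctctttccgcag
The letters searched on both strands were CACGTG (the E-box of the clock activators), AGGTCA (the core of REV-ERB and ROR sites), TTANNTAA (a D-box form) and TGATGNAA (a form of the amino acid response element). Over the 300-base windows of 32851 mouse promoters they occurred in 7.15%, 16.3%, 6.00% and 3.97%. RefSeq windows were found for all 7 genes, and the AGGTCA of Mthfd1, at bases -151 to -146 from its start site, was the only match among them. A match is a description of letters, and its absence says only that these letters are not in the window.

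Mthfd1, the cytosolic trifunctional enzyme, was higher in liver than in adipose tissue in every group pair, and its lowest levels in each tissue were on slide 1. In liver at ZT1 it read 4.96, 4.67 and 4.47 in mutants, against 3.09, 3.80 and 3.71 in controls, with no overlap. In liver at ZT13 it read 4.78, 4.98 and 4.63 in mutants, against 4.60, 4.84 and 4.77 in controls, and the groups overlapped. The control livers at ZT1, all on slide 1, were thus the low ones. The ZT1 difference was 1.17 ± 0.21, or 2.25-fold (adjusted p = 0.0013), and -0.47 with slide as a fixed block (adjusted p = 0.84). The control change between ZT1 and ZT13 was 1.20 ± 0.21 (adjusted p = 7.89e-04), and -0.58 with that block (adjusted p = 0.727). Both block values take the step between slides 1 and 2 from the mutant adipose arrays at ZT1, not from liver.

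In adipose tissue all 5 arrays of slide 1, all at ZT1, lay between 0.35 and 1.55 and the other 7 at 2.00 or above. Those 7 were at ZT13 except 1 mutant array at ZT1 on slide 2. Slide, time and that single sample can therefore not be told apart. Mutants at ZT1 read 0.52 and 0.59 on the slide 1 arrays and 2.20 on the slide 2 array. Controls at ZT1, all on slide 1, read 1.24, 1.55 and 0.35. At ZT13, where no array lay on slide 1, mutants read 2.41, 2.12 and 2.10, against 2.18, 2.01 and 2.00 in controls. The genotype difference at ZT1 was 0.05 ± 0.43 (adjusted p = 0.993) and -0.49 within slide 1. The mutant change between the times was 1.11 ± 0.43 (adjusted p = 0.143), and 1.65 without the slide 2 array (adjusted p = 0.00321).

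**Figure D3:**
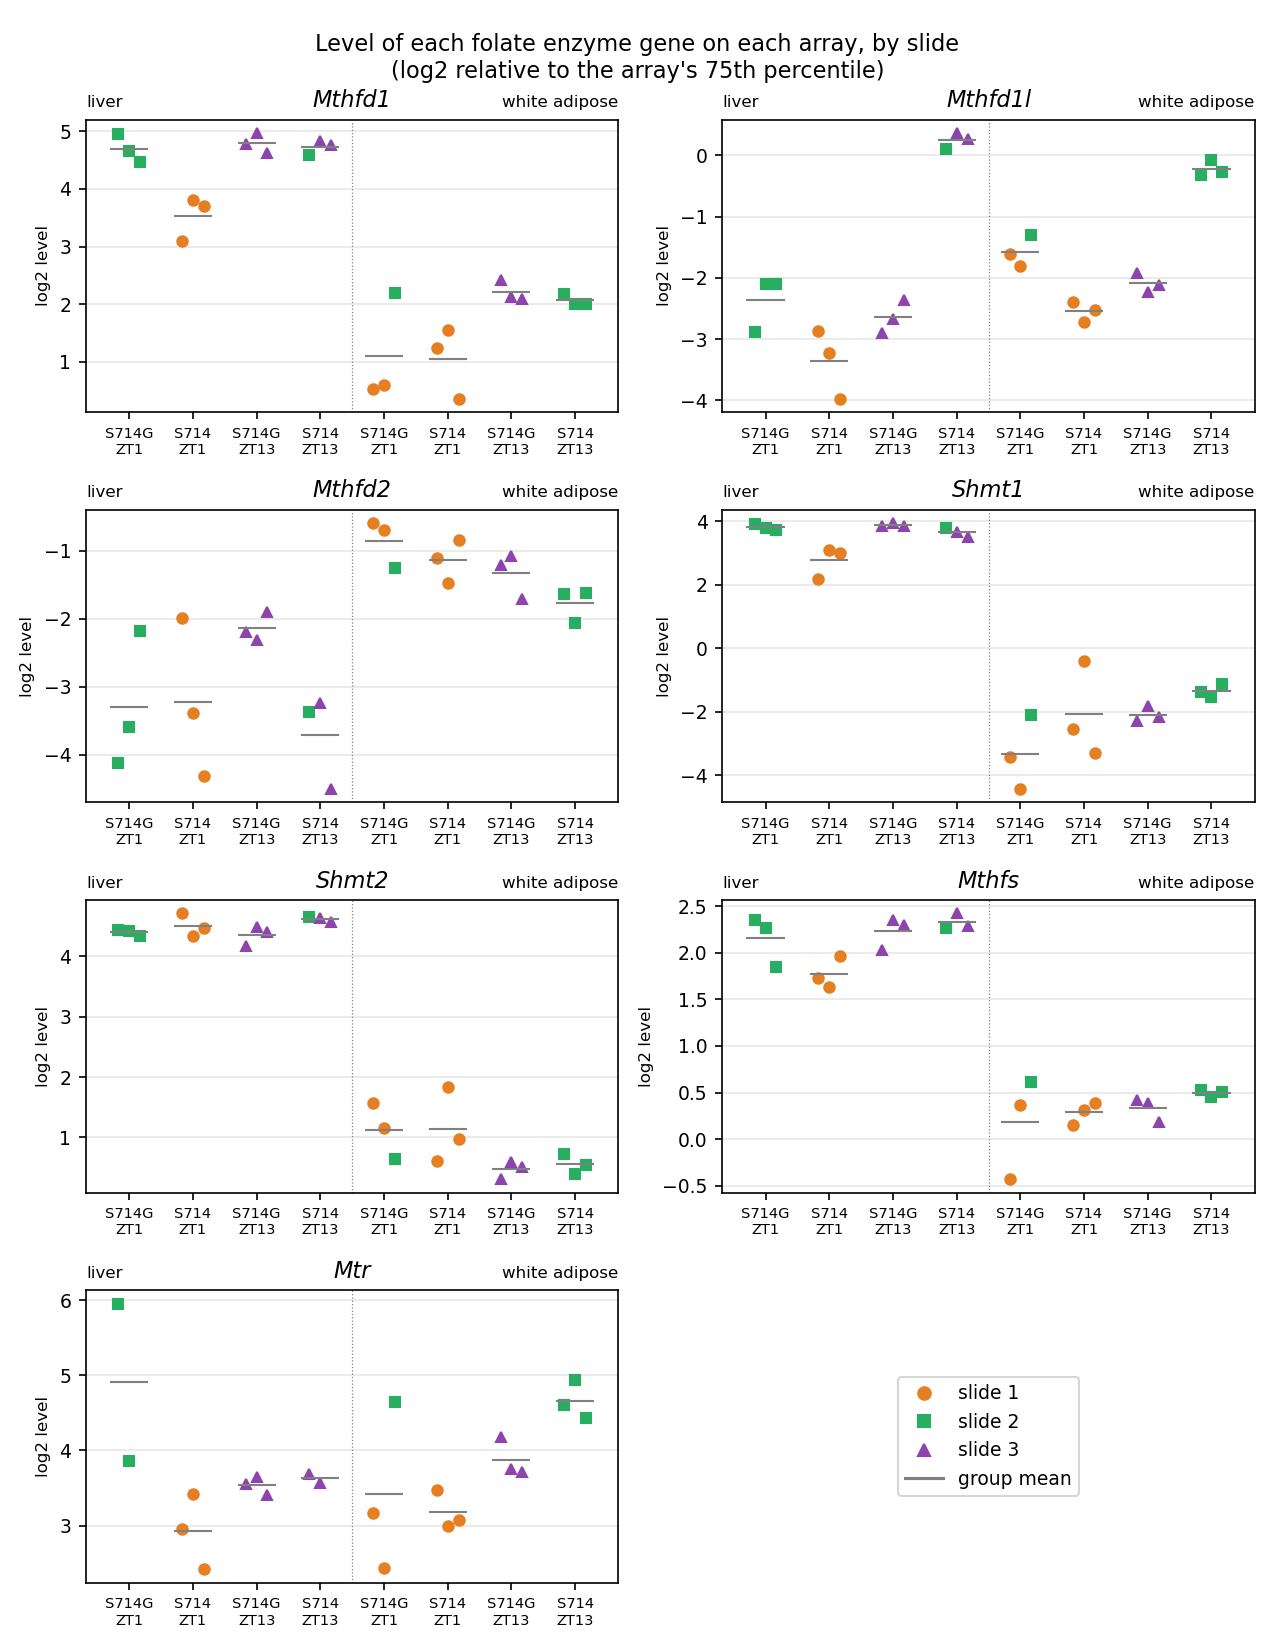
Level of the 7 genes on each array (main probe, log2 relative to the array's 75th percentile), by tissue, genotype and time, with colour and shape for the slide and a line for the group mean. Arrays of slide 1, all at ZT1, are the low ones for Mthfd1 in both tissues, and the adipose array of mutants at ZT1 on slide 2, at 2.20, stands with the ZT13 arrays.

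The serine hydroxymethyltransferases were higher in liver than in adipose tissue. Shmt1 exceeded its adipose level by 4.84 to 7.13 on the log2 scale over the 4 pairs of groups, more than any other of the 7 genes in each pair. The lowest value was that of controls at ZT1, whose adipose arrays had the most hepatocyte signal, and the highest that of mutants at ZT1. Shmt2 exceeded its own by 3.27 to 4.06 and came next, except in mutants at ZT1, where Mthfd1 did so by 3.60. In liver the main Shmt1 probe read 3.92, 3.78 and 3.73 in mutants at ZT1, against 2.18, 3.1 and 3.01 in controls at ZT1. At ZT13 it read 3.86, 3.94 and 3.85 in mutants, against 3.79, 3.65 and 3.52 in controls. Control livers at ZT1 were again the low group. The ZT1 difference was 1.05 ± 0.22 (adjusted p = 0.0031), and -0.80 with slide as a fixed block (adjusted p = 0.866). The control change between the times was 0.89 ± 0.22 (adjusted p = 0.00564), and -0.81 with that block (adjusted p = 0.819). Here too the block's step between slides 1 and 2 came from the mutant adipose arrays at ZT1.

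The second Shmt1 probe did not show the ZT1 difference. The main probe lies at chr11:60603099-60603158 and the second at chr11:60620453-60620512 (mm9, minus strand). Both are printed because they gave different answers for one gene:
Shmt1 main probe: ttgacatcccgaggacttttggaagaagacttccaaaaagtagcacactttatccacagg
Shmt1 second probe: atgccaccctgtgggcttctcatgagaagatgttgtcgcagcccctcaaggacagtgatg
In liver at ZT1 the second probe read 2.47, 2.58 and 2.51 in mutants, against 2.77, 2.13 and 2.63 in controls, a difference of 0.01 ± 0.17 (adjusted p = 0.965 over all probes). In control liver it fell by 0.47 between ZT1 and ZT13 (adjusted p = 0.0412), where the main probe rose. The 2 probes agreed on the tissues: the second exceeded its adipose level by 5.08 to 6.49. The change of Shmt1 in control liver thus has a direction that depends on the probe.

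Shmt2, by its single probe at chr10:126954811-126954870 (mm9, minus strand), passed no test within liver in the main fit. It read 4.44, 4.42 and 4.34 in mutants at ZT1, against 4.71, 4.34 and 4.47 in controls at ZT1. At ZT13 it read 4.16, 4.49 and 4.41 in mutants, against 4.66, 4.63 and 4.57 in controls. The genotype difference at ZT13 was -0.26 ± 0.14, given as a description. At ZT1 the difference was -0.11 ± 0.14 (adjusted p = 0.557), and 0.57 with normexp background correction (adjusted p = 0.00606). The control change between the times was 0.11 ± 0.14 (adjusted p = 0.538), and 0.76 with that correction (adjusted p = 7.70e-04). Both thus depend on the background correction.

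In adipose tissue at ZT1 the extreme Shmt1 values of the main probe lay on the arrays with extreme hepatocyte marker sums. Shmt1 read -3.43, -4.43 and -2.09 in mutants at ZT1, against -2.54, -0.41 and -3.29 in controls at ZT1. The summed hepatocyte markers of the same arrays were 6.42, 0.06 and 5.89 in mutants, against 6.76, 9.0 and 6.73 in controls. The control array with the most hepatocyte signal had the most Shmt1, and also the most Shmt2, at 1.84, but Shmt2 was not least on the mutant array with the least hepatocyte signal, at 1.16. The second Shmt1 probe was also highest on that control array, at -1.15. The mutant array with the least hepatocyte signal had the least Shmt1 by the main probe. Over all adipose arrays the order was not kept: mutants at ZT13 had sums of 4.37, 5.93 and 4.31 and Shmt1 at -2.30, -1.82 and -2.17, above the control ZT1 array at -3.29. Of the 8 hepatocyte markers, 6 were well above background on all 3 mutant ZT1 adipose arrays and 8 on all 3 control ones. The Shmt1 difference at ZT1 was -1.24 ± 0.68 (adjusted p = 0.741), and -0.40 without control replicate 2. The part of hepatocyte RNA in these values was not tested. In bulk samples such as these, fewer cells of a type and less RNA per cell cannot be told apart.

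**Figure D4:**
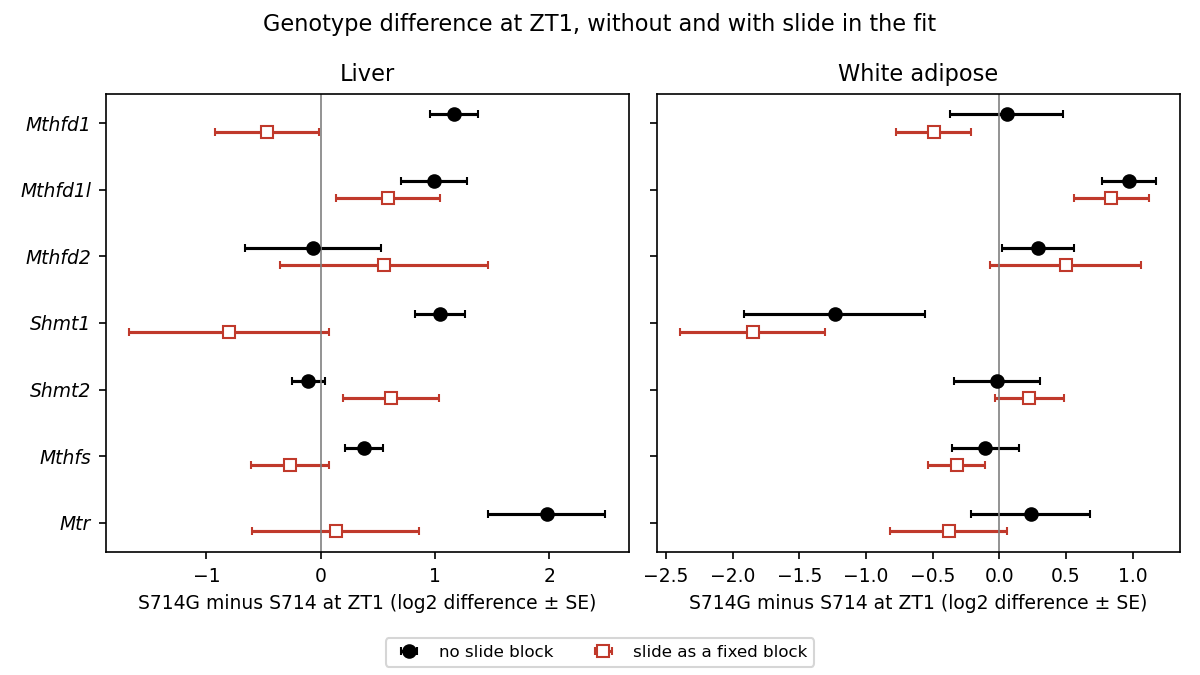
Mutant minus control at ZT1 for each gene (log2 difference ± SE), in liver and in white adipose tissue, without slide in the fit (filled circles, n = 3 each) and with slide as a fixed block over all 24 arrays (open squares). In liver Mthfd1 and Shmt1 lie at 1.17 and 1.05 without the block and at -0.47 and -0.80 with it, while Mthfd1l stays above 0 in both tissues.

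Mthfd2, the mitochondrial dehydrogenase and cyclohydrolase best known from embryonic and proliferating cells, read lower in liver than in adipose tissue in all 4 pairs of groups, of which 3 passed the test. Its probe lies at chr6:83256518-83256577 (mm9, minus strand). In liver at ZT13 it read -2.19, -2.32 and -1.89 in mutants, against -3.38, -3.24 and -4.51 in controls, without overlap, a difference of 1.58 ± 0.60. At ZT1 it ranged from -4.13 to -2.17 in mutant liver and from -4.32 to -1.99 in control liver, with 1 array of each group not well above background. That difference was -0.06 ± 0.60 (adjusted p = 0.935). In adipose tissue it ranged from -1.26 to -0.59 in mutants at ZT1, against -1.47 to -0.85 in controls at ZT1, a difference of 0.29 ± 0.27 (adjusted p = 0.907). No change between the times passed in either tissue or genotype. They ranged from -0.63 in control adipose tissue to 1.17 in mutant liver.

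Mthfs, the 5-formyltetrahydrofolate cycloligase, moved little. Its probe lies at chr9:89110064-89110123 (mm9, plus strand). Liver group means lay between 1.78 ± 0.17 in controls at ZT1 and 2.33 ± 0.08 in controls at ZT13 (SD, n = 3 each), and adipose means between 0.18 ± 0.55 and 0.49 ± 0.04. The control liver change of 0.55 ± 0.17 passed (adjusted p = 0.0182), was -0.15 with slide as a fixed block, while in mutant liver the change was 0.07 ± 0.17 (adjusted p = 0.906). The difference between those 2 changes is the interaction, -0.48 ± 0.24, given as a description.

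Mtr, methionine synthase, was read by 2 probes that ran opposite ways in liver at ZT1. They lie at chr13:12278823-12278882 and chr13:12279165-12279224 (mm9, minus strand). Per the file annotation, the brighter probe was designed on a cDNA clone and the other on the RefSeq transcript. Their first 30 bases are shown because the brighter one opens with repeats of GGTTT, in capitals:
Mtr brighter probe: ggttGGTTTGGTTTGGTTTGGTTTagtttt
Mtr second probe: ttatgtttgctgacctcaggggggataatc
In liver at ZT1 the brighter probe read 5.95 and 3.86 in mutants, where the array of replicate 2 was left out for an outlier flag, against 2.95, 3.42 and 2.42 in controls. The difference was 1.98 ± 0.51 (adjusted p = 0.0125) and 0.13 with slide as a fixed block. The mutant mean rests on 2 arrays: the difference was 0.93 without mutant replicate 1 (adjusted p = 0.0663) and 3.03 without mutant replicate 3 (adjusted p = 9.81e-04). The second probe read -0.97, -0.99 and -1.0 in mutants, against -0.20, -0.41 and -0.18 in controls, a difference of -0.72 ± 0.12 (adjusted p = 0.00121 over all probes). Neither probe's groups overlapped, and the directions were opposite.

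By the brighter probe, adipose mutants at ZT1 read 3.17 and 2.43 on slide 1 and 4.65 on slide 2. Control adipose tissue rose by 1.48 ± 0.44 between ZT1 and ZT13 by this probe (adjusted p = 0.0464), and differed by -0.37 with slide as a fixed block. That call was lost without any 1 of the 6 control adipose arrays, at 1.34 to 1.63 (adjusted p from 0.0568 to 0.129). The second probe differed there by -0.38 ± 0.29 (adjusted p = 0.344). By the second probe Mtr was lower in liver than in adipose tissue in every pair of groups, with differences of -1.43 to -0.71 (adjusted p at most 0.0115). By the brighter probe the tissue difference ran from -1.03 to 1.49.

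Counts of members can be read only against the share of all genes that passed an adjusted p of 0.05 in the same comparison. Between genotypes at ZT13 the fit called 1 of 7 in liver, where it called 3.02% of all genes, and 1 of 7 in adipose tissue, where it called 0.0428%. Both were Mthfd1l, whose values there chose the set, so nothing is read from these counts. In liver at ZT1, 4 of 7 were called (Mthfd1, Mthfd1l, Shmt1 and Mtr), against 45.4% of all genes called in either direction, a share near the background. All 4 were higher in mutants, where 39.3% of all called genes were. By its second probe Shmt1 did not show the difference and Mtr ran the opposite way, so the count depends on the probe. With slide as a fixed block none of the 7 passed, a count that cannot decide between slide and genotype. Mutant and control livers at ZT1 shared no slide, so the block's step between them came from adipose arrays of mutants, not from liver. In adipose tissue at ZT1 none of the 7 passed and 0% of all genes did by limma, while at an unadjusted p under 0.05 1825 genes passed.

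Between the times in liver, none of 7 passed in mutants, against 1.99% of all genes, and 4 of 7 were called higher at ZT13 in controls (Mthfd1l, Mthfd1, Shmt1 and Mthfs), against 51.2%. In adipose tissue none of 7 passed in mutants, against 1.89%, and 2 of 7 were called higher at ZT13 in controls (Mthfd1l and Mtr), against 15%. The call of Mtr was lost without any single control adipose array. The calls of Mthfd1l in both tissues use arrays that chose the set and are a description. In neither tissue did the ZT1 and ZT13 arrays of a genotype share a slide. Without the mutant ZT1 adipose array on slide 2, 3 of 7 passed in mutant adipose tissue. No share of all genes is given for that fit, so nothing is read from this count. The genotype by time interaction, given as a description, called 2 of 7 in liver (Mthfd1l and Mthfd1), against 31.2%, and 1 of 7 in adipose tissue (Mthfd1l), against 0.124%. Median differences of the 7 in the control time comparisons were 0.70 in liver and 0.74 in adipose tissue, where the medians over all genes were -0.15 and -0.26. With the second probes of Mthfd1l, Mtr and Shmt1 they were 0.11 in liver and -0.38 in adipose tissue, so they depend on the probe.

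Both tissues of controls at ZT1 lay on slide 1 and both tissues of mutants at ZT13 on slide 3, so these tissue differences can be taken within a slide. Shmt1, Shmt2, Mthfd1 and Mthfs passed as higher in liver in all 4 pairs of groups. Members called numbered 4 of 7 in mutants at ZT13, against 56.6% of all genes, 5 of 7 in controls at ZT13, against 56.7%, 7 of 7 in mutants at ZT1, against 53.7%, and 6 of 7 in controls at ZT1, against 48.5%. The 7 of mutants at ZT1 were 5 higher and 2 lower in liver. They include Mtr by its brighter probe, at 1.49 with overlapping groups, where the second probe gave -1.43. Shmt1, Shmt2, Mthfd1 and Mthfs kept their calls within slide 1 and within slide 3. Within slide 3 the mutant ZT13 differences were 5.98 for Shmt1, 3.89 for Shmt2, 2.59 for Mthfd1 and 1.90 for Mthfs (adjusted p at most 2.71e-05). Mthfd2 was lower in liver, with differences of -1.94 in controls at ZT13, -2.45 in mutants at ZT1 and -2.09 in controls at ZT1 (adjusted p at most 0.00238), and differed by -0.80 ± 0.49 in mutants at ZT13 (adjusted p = 0.174). Mthfd1l was lower in liver at ZT1, with differences of -0.79 in mutants and -0.81 in controls (adjusted p = 0.013 and 0.0127). With normexp background correction these were -0.67 in mutants and -0.03 in controls (adjusted p = 0.00368 and 0.891), so the control difference depends on the background correction. At ZT13 Mthfd1l differed by -0.56 ± 0.25 in mutants and 0.47 ± 0.25 in controls (adjusted p = 0.0686 and 0.125). Within slide 1 the control ZT1 difference of Mthfd1l did not pass (adjusted p = 0.0773), while within slide 3 the mutant ZT13 differences of Mthfd1l and Mthfd2 did (adjusted p = 0.0206 and 0.0107). Within slide 2 mutants at ZT1 had only 1 adipose array, so no count of members is read there.

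**Figure D5:**
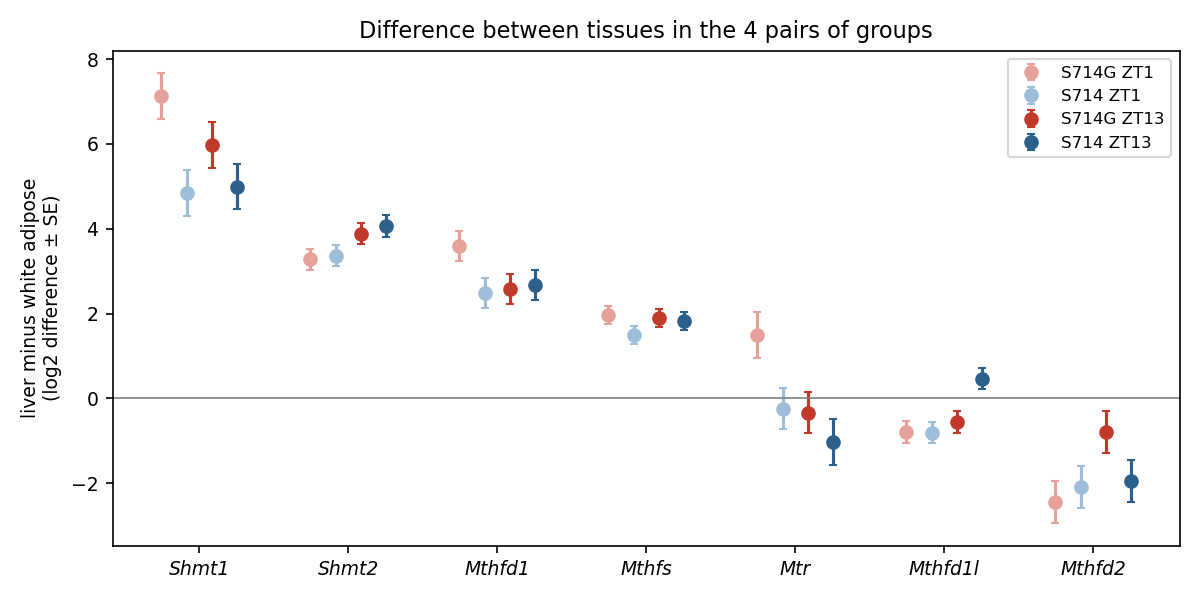
Liver minus white adipose tissue for each gene (log2 difference ± SE) in the 4 pairs of groups, mutants in red and controls in blue, with the ZT1 pairs in pale shades. Shmt1 lies between 4.84 and 7.13 and Shmt2 between 3.27 and 4.06, both above 0 in every pair, whereas Mthfd2 lies below 0 in every pair.

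Effects were also compared between the tissues, except the genotype difference at ZT13, which chose the set. For the genotype difference at ZT1 none of 7 passed, against 1.41% of all genes. For the control change between times none of 7 passed, against 2.6%, and for the mutant change none of 7, against 1.24%. Without mutant ZT1 adipose replicate 3, 3 of 7 passed for the genotype difference at ZT1 and 2 of 7 for the mutant change. No shares of all genes are given for these fits, so nothing is read from those counts. With all arrays the largest such difference was that of Shmt1 in the genotype effect at ZT1, 2.28 ± 0.76 (adjusted p = 0.105). The hepatocyte signal of the adipose arrays was unequal between these groups and was not entered in the fit.

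The rest of the folate pathway was read from a list of 23 other genes, of which 21 were tested in each tissue. In liver at ZT1, 4 of the 21 were higher and 6 lower in mutants, near the 45.4% of all genes called. Slc25a32, the mitochondrial folate carrier, was higher by 1.74 and Mthfd2l, a mitochondrial relative of Mthfd2, by 1.76 (adjusted p = 7.15e-05 and 0.00168). Gldc, of the glycine cleavage system, was lower, with a difference of -1.30 (adjusted p = 0.00134). The list's median was 0.07, where that of all genes was -0.17. None of the 21 passed in adipose tissue at ZT1, where the median was -0.14.

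In liver at ZT13, 1 of the 21 was higher and 3 lower in mutants, where 3.02% of all genes were called. Slc19a1 and Slc25a32 were among the lower ones, with differences of -1.20 and -1.19 (adjusted p = 0.00208 and 0.00461).

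Between the times, 1 of the 21 rose and none fell in mutant liver, where 1.99% of all genes were called. In control liver 6 of the 21 rose and 8 fell, where 51.2% of all genes were called. Slc25a32 rose there by 2.4, and Slc19a1, the reduced folate carrier of the cell surface, by 1.28 (adjusted p = 6.83e-06 and 1.04e-04). In adipose tissue Slc25a32 rose by 1.82 in mutants and 1.39 in controls (adjusted p = 0.0296 and 0.0305). Folr2, a folate receptor of macrophages, fell by 2.53 in mutant and 1.34 in control adipose tissue (adjusted p = 0.00313 and 0.0196). The summed macrophage markers there were 4.35 to 4.98 in mutants at ZT13, against 6.18 to 6.78 at ZT1, and 5.12 to 5.64 in controls at ZT13, against 6.00 to 6.17 at ZT1. The part of macrophage content in the Folr2 values was not tested. Slc19a1 fell by 1.07 in control adipose tissue (adjusted p = 0.0233), opposite to control liver, and the liver change exceeded the adipose one by 2.35 ± 0.28 (adjusted p = 1.88e-04).

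Between the tissues 22 of the 23 other folate genes were tested, and 10 were higher and 6 lower in liver in mutants at ZT13, against 12 and 4 in controls at ZT13. Of all genes 56.6% and 56.7% were called in these pairs. Gldc and Amt, both of the glycine cleavage system, exceeded their adipose levels by 7.80 and 5.06 in mutants at ZT13 (adjusted p = 1.70e-09 and 1.49e-10). Fpgs, which adds glutamates that hold folate in the cell, exceeded it by 3.62 in mutants and 3.21 in controls at ZT13 (adjusted p = 3.56e-09 and 1.87e-08).

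Of 15 genes of the methionine cycle and transsulfuration, 1 was higher and 3 lower in mutant liver at ZT1, where 45.4% of all genes were called. Between the times 2 rose and 5 fell in control liver, where 51.2% were called, so both counts are near or below the background. Ahcyl1, a relative of adenosylhomocysteinase, was the one gene higher in mutants at ZT1, by 2.00, and rose by 1.96 in control liver (adjusted p = 1.28e-04 and 8.04e-05). Pemt, which methylates phosphatidylethanolamine, was lower in mutants at ZT1, with a difference of -1.05 (adjusted p = 0.00463). In mutant liver none of the 15 passed between the times, where 1.99% of all genes did. In adipose tissue Mat2a, a methionine adenosyltransferase subunit, rose by 0.88 in controls (adjusted p = 0.022). Between tissues 11 of the 15 were higher and 3 lower in liver in mutants at ZT13, where 56.6% of all genes were called. Among the higher were the transsulfuration enzymes Cbs by 4.94 and Cth by 4.15 (adjusted p = 1.00e-08 and 1.27e-09).

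The 3 genes of serine synthesis, which makes the substrate of both Shmt enzymes, ran opposite to Shmt1 and Shmt2 between the tissues. Phgdh, the first enzyme, was lower in liver than in adipose tissue, with differences of -9.43 in mutants at ZT13 and -9.66 in controls at ZT13 (adjusted p = 1.71e-14 and 1.1e-14). Psat1 differed by -6.02 and -6.31 in the same pairs, and Psph by -0.92 and -1.34 (adjusted p at most 0.00415). All 3 passed as lower in liver in all 4 pairs. By the Phgdh probe that is brightest in liver, another than that of the tissue comparison, Phgdh at ZT1 was higher in mutant liver by 1.5 (adjusted p = 0.0126), and in control liver Psat1 fell by 1.01 between the times (adjusted p = 0.00119).

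Of 11 ATF4 targets outside folate metabolism, a list of stress response genes, 10 were tested. In liver at ZT1 Ddit3 was higher in mutants by 0.70 (adjusted p = 0.011) and no other gene passed, against 45.4% of all genes. At ZT13 Nupr1 was higher by 1.04, and Chac1 and Trib3 were lower, with differences of -2.37 and -1.18 (adjusted p = 0.0358, 0.0298 and 0.0386), where 3.02% of all genes were called. In mutant liver Ddit3 rose by 1.05 and Trib3 fell by 2.34 between the times (adjusted p = 0.0176 and 0.00193). In control liver Ddit3 rose by 1.12, and Trib3 and Nupr1 fell by 1.58 and 0.77 (adjusted p = 6.89e-04, 7.41e-04 and 0.0169). In adipose tissue none of the 10 passed between genotypes at either time. Slide was not entered in the fits of these 4 lists. The liver genotype comparison at ZT1, the adipose one at ZT13 and the time comparisons of both genotypes share no slide between their groups. This holds for the lists as for the members.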

How the data were processed

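Total RNA was labelled with Cy3 and hybridised to 1-colour Agilent arrays, 24 in all. Per the file headers, the deposited intensity values are processed signals from Agilent Feature Extraction 10.7.3.1, already background-corrected. Other deposited columns used are the flags for spots well above background and outliers. The log2 table deposited by the authors differed from the log2 signals by a constant per array, within 0.01 for 100% of probes, with column medians of -3.92 to -3.03.

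Spots with outlier flags were left out, log2 signals were taken relative to each array's 75th percentile, and spots of a probe were averaged. A probe was kept if some group had it well above background on all 3 of its arrays, and the brightest represented its gene. Tests used limma 3.58.1 (lmFit and eBayes) in R 4.3.3, Benjamini-Hochberg adjustment over all genes tested and a threshold of 0.05. Within-tissue comparisons used 12 arrays of 4 groups and tissue comparisons all 24. Python 3.11.15, pandas 2.3.3 and matplotlib 3.10.9 made tables and figures. The script was tested on simulated data. The number of arrays limits the precision.

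Alternatives were normexp background correction with an offset of 50, other scalings and filters, slide as a fixed or random block, the replicate number as a block, and each array left out. Same-numbered samples did not as a rule deviate together. The correlation exceeded 0.1 in 1 of 12 pairs across tissues and 6 of 36 within a tissue. It ran from -0.26 to 0.14 across tissues and from -0.52 to 0.35 within a tissue, so the numbers were not taken to pair samples. All members and their probes are named, and of each pathway list up to 4 genes of lowest p per comparison, except some that are not reported here by name and stay in the counts. Members and lists were chosen with earlier results of these data known.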

Additional observations from a re-analysis of the deposited data

Results flagged for a closer look

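The genotype by time interaction, the genotype difference at ZT13 minus that at ZT1, stood out for Mthfd1l in both tissues and for Mthfd1 in liver, because the change between the times differed between the genotypes. For Mthfd1l it was -3.88 ± 0.41 (SE, log2) in liver and -2.84 ± 0.29 in adipose tissue. Both contain the ZT13 difference by which the genes were chosen and are a description. For Mthfd1 in liver it was -1.11 ± 0.29, and 0.46 with slide as a fixed block.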

How the results depend on the processing

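Of the alternative values, 1907 kept their direction and side of the threshold. Another 127 changed direction where neither value was called, 52 lost and 34 gained a call, and 12 reversed, changing direction where either value was called. With slide as a fixed block Mthfd1 and Shmt1 reversed in liver at ZT1, to -0.47 and -0.80, and in control liver over time, to -0.58 and -0.81. Mthfs there reversed to -0.15, the liver interaction of Mthfd1 to 0.46, and Mtr in control adipose tissue to -0.37. Each of these reversals takes the step between slides 1 and 2 from the 3 adipose arrays of mutants at ZT1. For Shmt1 these read -3.43 and -4.43 on slide 1 and -2.09 on slide 2. The array at -4.43 had the lowest hepatocyte sum, at 0.06. Members called with that block were 0 in liver at ZT1, 1 in control liver, 1 in the liver interaction, 0 in adipose tissue at ZT13 and 0 in control adipose tissue. The counts in liver at ZT1 and in controls rest on the same step, so they cannot tell slide from genotype or time. With slide as a random block the counts were, in the same order, 0, 1, 1, 0 and 1. Keeping only probes well above background on every array replaced the brighter Mtr probe with the second and dropped Mthfd1l in liver, where the ZT13 count was then 0. Mtr reversed under it to -0.72 in liver at ZT1, -0.51 in control liver, 0.64 in the liver interaction and -1.43 between tissues in mutants at ZT1. With normexp correction Shmt2 in liver at ZT1 reversed to 0.57, the liver interaction called 5 and control adipose tissue 1, which was also the count with no filter on dim probes. Over 24 arrays without slide, the liver interaction called 1 and mutant adipose tissue 1. Within slide 2 the tissues of mutants at ZT1 gave 4. Leaving out each array in turn gave 0 to 1 in mutant liver, 2 to 4 in the liver interaction, 0 to 1 in adipose tissue at ZT13, 0 to 3 in mutant adipose tissue and 1 to 1 in control adipose tissue. The tissue differences gave 0 to 3 for the ZT1 genotype effect, 0 to 1 for the control change and 0 to 2 for the mutant change. In the first 3 members and in the last 2 were called without mutant ZT1 adipose replicate 3. The adipose ZT13 count was 0 without mutant replicate 2 or 3. With the replicate block, adipose tissue at ZT13 called 0 and control adipose tissue 1, the Mtr call between tissues in mutants at ZT1 was lost, and the liver interaction of Mtr was gained. The cause was not tested, except that the stricter filter exchanges or drops probes by construction. Quantile scaling moved the median tissue difference of all genes in controls at ZT13 by -0.25, the largest shift of a scaling alternative.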
